A study of Mus musculus with 4 samples.

Results

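The genes described here are the cathepsins and the subunits of the vacuolar ATPase (V-ATPase), taken by symbol from the feature list: every symbol made of Cts and 1 letter, and every symbol that begins with Atp6v0 or Atp6v1, with pseudogenes left out. The rule gave 40 of 31053 genes, 18 cathepsins and 22 V-ATPase subunits, and used no measured value. The study sorted living CD45.2+ cells from mouse lung and made 4 single-cell libraries, 1 for each combination of genotype and exposure, all on C57BL/6 mice. WT mice carried the floxed alleles alone (Ift20 f/f), and KO mice carried the same alleles with a CD4 cre transgene, so that all 4 groups share the floxed gene. Papain mice received 25 µg of papain into the nose on 3 days, were challenged with papain on day 14 and gave their cells on day 15, and the other mice were labelled DPBS, the buffer control. IFT20 is a protein of vesicle and cilium transport, and the Cd4 promoter drives cre in developing T cells, including the precursors of CD8 T cells, so the deletion was not aimed at macrophages, B cells or neutrophils. The labels do not say how many mice each library holds.

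Cathepsins are proteases of the lysosome and endosome. Most of them are cysteine proteases of the papain family, to which the allergen papain itself belongs; cathepsins D and E are aspartic proteases, and cathepsins A and G are serine enzymes. The V-ATPase is the proton pump that acidifies these compartments, which cathepsins need for maturation and activity; its V0 sector lies in the membrane and carries protons, and its V1 sector, on the cytosolic side, burns ATP. Alveolar macrophages clear inhaled material and surfactant from the airspace and are rich in lysosomes, and in antigen-presenting cells cathepsin S trims the invariant chain from MHC class II. Many lysosomal genes carry a motif called CLEAR, bound by TFEB and its relatives, whose core is the letters TCACGTGA.

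Promoters of members are shown here because that motif can be read in them directly. RefSeq promoters on build GRCm38.p6, from 250 bases before to 50 bases after the start, were matched for 30 of the 40 members. TCACGTGA stood in 5 of the 30 genes (16.7%), against 304 of 27025 genes of the whole table (1.12%), and CACGTG, which it contains, in 8 of 30 (26.7%) against 2187 of 27025 (8.09%). Both motifs read the same on either strand, and a match is a description of the letters, not evidence of binding. The 5 genes are Ctsd and Ctsa among the cathepsins, and Atp6v0d1, Atp6v0e and Atp6v1a among the pump subunits. Stretches around the motif are given 5′ to 3′ on the gene's strand, with TCACGTGA in capitals, at chr7:142387883-142387962 (minus strand) for Ctsd, chr2:164833724-164833820 (plus) for Ctsa, chr8:105566025-105566104 (minus) for Atp6v0d1, chr17:26676362-26676441 (plus) for Atp6v0e and chr16:44139348-44139427 (minus) for Atp6v1a.
Ctsd: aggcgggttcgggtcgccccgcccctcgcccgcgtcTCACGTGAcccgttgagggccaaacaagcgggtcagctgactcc
Ctsa: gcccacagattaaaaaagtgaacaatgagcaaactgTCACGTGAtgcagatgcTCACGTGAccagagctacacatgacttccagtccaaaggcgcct
Atp6v0d1: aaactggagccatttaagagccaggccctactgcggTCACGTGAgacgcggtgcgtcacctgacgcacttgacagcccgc
Atp6v0e: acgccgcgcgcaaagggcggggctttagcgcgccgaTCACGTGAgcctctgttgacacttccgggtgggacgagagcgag
Atp6v1a: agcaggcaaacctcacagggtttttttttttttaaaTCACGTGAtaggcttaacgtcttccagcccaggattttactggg
The first motif began at −99 relative to the start in Ctsd, at −13 in Ctsa, at −4 in Atp6v0d1, at 2 in Atp6v0e and at −132 in Atp6v1a. Ctsa held a second copy at 4.

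The libraries held between 5863 and 8552 barcodes and between 53854420 and 75675956 UMIs, a UMI being 1 captured mRNA molecule, and 5421 to 7559 cells were kept in each. Pairs of libraries shared 7 to 16 barcodes. Cells were grouped without use of the members or of other lysosomal genes, and clusters were named by marker genes as X-like classes, 12 of them. Alveolar macrophage-like cells numbered 1210 and 1058 in the WT and KO libraries of DPBS and 698 and 444 in those of papain, B-like cells 1469 to 2244, and mature dendritic cell-like cells only 11 to 46. Median depth differed between classes, from 17159.5 to 19427 UMIs per alveolar macrophage-like cell to 2926 to 3325 per neutrophil-like cell, so a level is written in CPM, a gene's UMIs scaled to a total of 1000000 UMIs in its class and library. Ift20 stood at 59.5 CPM in DPBS WT and 59.6 CPM in Papain WT CD4 T-like cells, and at 21.0 and 19.0 CPM in DPBS KO and Papain KO. In alveolar macrophage-like cells it lay between 56.6 and 64.5 CPM in all 4 libraries. The 10 markers of alveolar macrophages summed to 39103 CPM in Papain WT, which stood apart, and to 21402, 21804 and 22662 CPM in DPBS WT, DPBS KO and Papain KO. The markers did not all share this gap. In the largest alveolar macrophage-like cluster, Ms0, Chil3 was at 25081 CPM in Papain WT and 11687 to 13920 CPM in the other libraries. Ear2 was at 2020 to 2254 CPM and Plet1 at 1451 to 1533 CPM there over all 4.

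Each group has 1 library, so differences between groups have no replicate check; they were not tested, and no p-value is given. Intervals in square brackets are exact 95% intervals, Poisson for levels and binomial for ratios, or Wilson intervals for shares of cells, and cover counting error only. The 4 libraries serve as repeats where cell classes are compared, and there an exact paired permutation test could not fall below 1 in 8. Each UMI is a tag from the 3′ end of a transcript, so levels carry no correction for length, and different genes are set side by side only as shares of captured UMIs.

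Of the 40 members, 26 reached 20 CPM in all 4 libraries of at least 1 class, 12 cathepsins and 14 V-ATPase subunits. The other 14 include Ctsj, Ctsm, Ctsq and Ctsr, cathepsins of the rodent placenta, which had no UMI in any kept cell. Atp6v1e2 also had none, and 3 to 30 UMIs over all kept cells were counted for Atp6v1b1 (3), Atp6v0a4 (4), Ctsg (12), Atp6v1c2 (12), Atp6v0e2 (14) and Atp6v1g3 (30). Several of these are the isoforms known from kidney, testis or other epithelia, and cathepsin G is a granule protease of myeloid precursors. Ctse, the second aspartic cathepsin, had 982 UMIs, with 2.44, 11.9, 19.7 and 14.2 CPM in neutrophil-like cells in the order DPBS WT, DPBS KO, Papain WT, Papain KO, an order kept for all lists of 4 values. Atp6v1g2 had 372 UMIs and was highest in group 2 innate lymphoid cell (ILC2)-like cells, at a mean of 6.93 CPM. Atp6v0c, which encodes the proton-carrying ring of V0, had only 685 UMIs, and its level is uncertain: the annotation holds processed copies of it on chromosomes 7 and 6 that the files do not count, and reads shared with them may have been dropped. Ctsd overlaps a second gene model on the same strand, Gm49369, so its level may also be understated.

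Both families were highest in alveolar macrophage-like cells. Summed cathepsins stood at 12830, 12623, 14725 and 12745 CPM in alveolar macrophage-like cells and between 8941 and 10686 CPM in interstitial macrophage-like cells. They lay between 6125 and 6425 CPM in classical and between 6445 and 6990 CPM in nonclassical monocyte-like cells. Conventional dendritic cell (cDC)-like cells held 2434 to 2666 CPM, and neutrophil-like cells 1651 to 1724 CPM. The B-like range was 1435 to 1630 CPM and the NK-like range 1839 to 2073 CPM. CD4 T-like cells were lowest on average, at 624 to 709 CPM, a range that overlapped that of ILC2-like cells (695 to 797 CPM). The macrophage and monocyte ranges did not overlap those of any other class, while those of neutrophil-like and B-like cells lay close together. In molecules, an alveolar macrophage-like cell held 247 to 260 cathepsin UMIs on average.

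The V-ATPase sum followed another order below the macrophages. It was 4640, 4637, 4632 and 4556 CPM in alveolar macrophage-like cells, a narrow range, against 2132 to 2544 CPM in interstitial macrophage-like cells. Neutrophil-like cells overlapped the latter at 2433 to 2719 CPM and lay above the classical (2133 to 2249 CPM) and nonclassical (1896 to 2058 CPM) monocyte-like ranges. B-like cells held 1207 to 1313 CPM, CD4 T-like cells 919 to 962 CPM and CD8 T-like cells 807 to 842 CPM. Across classes the pump subunits therefore varied less than the cathepsins. The log2 ratio of cathepsin to V-ATPase UMIs was 1.44 to 1.67 in alveolar and 1.92 to 2.13 in interstitial macrophage-like cells, 0.13 to 0.41 in B-like cells and −0.71 to −0.54 in neutrophil-like cells. Neutrophil-like cells thus combined a pump sum above that of monocytes with a cathepsin sum near that of B cells.

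**Figure D1:**
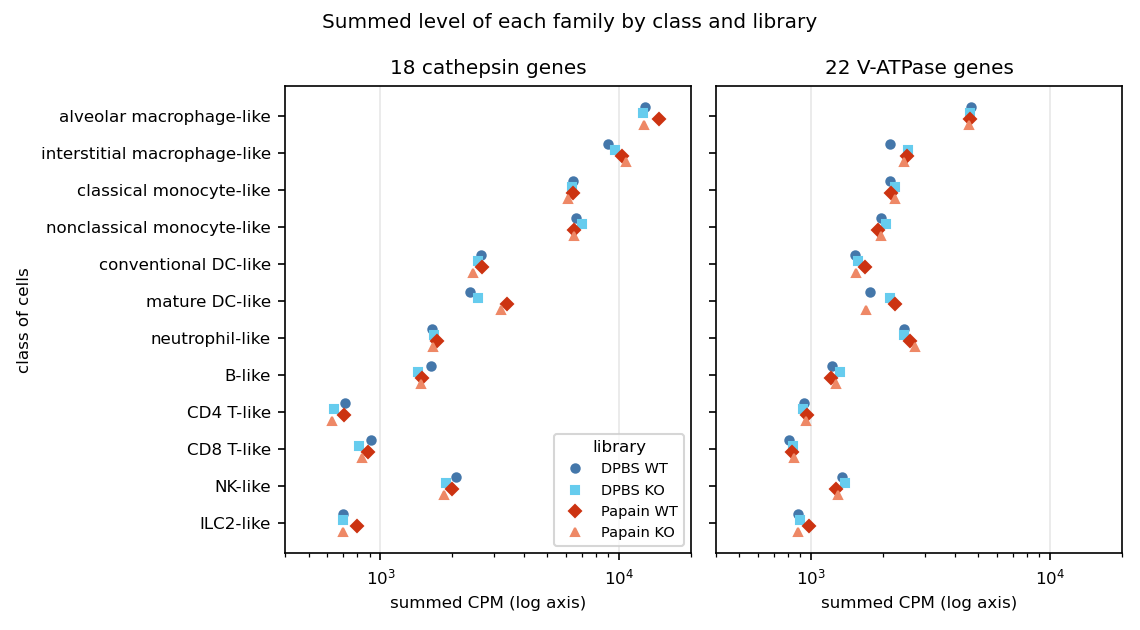
Summed CPM (log axis) of the 18 cathepsins and of the 22 V-ATPase subunits in each of 12 cell classes, with 1 marker for each of the 4 libraries. Alveolar macrophage-like cells are highest for both sums, and neutrophil-like cells lie near B-like cells for cathepsins but above monocyte-like cells for the V-ATPase.

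Cathepsin D, the main aspartic protease of the lysosome, took the largest share of captured cathepsin UMIs in alveolar macrophage-like cells, 38.5%. Its level there was 4944, 5080, 5482 and 4625 CPM, and in DPBS WT the counting interval was [4916, 4973]. Interstitial macrophage-like cells followed at 965, 2003, 1140 and 1462 CPM. All 4 alveolar values lay above all 4 interstitial ones, and the means differed 3.61-fold. Among the other classes Ctsd was high in neutrophil-like cells (807, 725, 824 and 818 CPM) and in NK-like cells (826, 718, 895 and 755 CPM), and it made up 47.8% and 40.6% of their cathepsin UMIs. It was lowest on average in cDC-like cells, at 56.1 to 78.1 CPM with a mean of 65.95 CPM. The B-like mean was 70.2 CPM, and in Papain WT the B-like value was the lower one.

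Cathepsin K, a collagen- and elastin-degrading enzyme best known from osteoclasts, was the cathepsin that set alveolar macrophage-like cells apart most. It had 352 [344, 359], 381 [372, 389], 573 [560, 586] and 434 [420, 448] CPM there. Interstitial macrophage-like cells had 11.97, 102, 131 and 27.6 CPM, and B-like cells 3.29, 2.20, 2.31 and 1.87 CPM. The alveolar gene Chil3 was at 57.8, 918, 2264 and 352 CPM in the same interstitial libraries, and its part in these Ctsk levels was not tested. The B-like Ctsk levels did not clear the freed-RNA check described further on in every library. No other class reached the alveolar range. Cathepsin L, a broad endopeptidase, was also highest in these cells (406, 358, 470 and 342 CPM), but its range overlapped that of interstitial macrophage-like cells (237 to 360 CPM). Cathepsin F, which can process the invariant chain in macrophages, was low, at 21.1 to 23.9 CPM in alveolar macrophage-like cells, and had no UMI in neutrophil-like cells, which allows up to 2.68 CPM (3 UMIs) in Papain WT, the deepest of the 4.

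Cathepsin S, the invariant chain protease, was shared by the whole mononuclear phagocyte line. Alveolar macrophage-like cells had 3222, 3023, 4161 and 3557 CPM, and interstitial ones 3253, 3101, 4568 and 4368 CPM. The ranges overlap. Classical monocyte-like cells had 2157 to 2214 CPM, nonclassical ones 1748 to 1899 CPM and cDC-like cells 780 to 916 CPM, and B-like cells, which also present antigen, 452 to 512 CPM. Neutrophil-like cells had only 84.9 to 116 CPM. Cathepsin Z, a carboxypeptidase, was also highest in macrophages, with 1172 to 1314 CPM in interstitial and 1029 to 1207 CPM in alveolar macrophage-like cells, and it led the cathepsin UMIs of mature dendritic cell-like cells at 34.3%.

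Cathepsin B, a lysosomal endo- and carboxypeptidase, was the cathepsin of nonclassical monocyte-like cells. It stood at 2650, 2806, 2521 and 2540 CPM there and at 1612, 1469, 1313 and 1531 CPM in classical monocyte-like cells. All 4 nonclassical values lay above every other class, and Ctsb gave 39.6% of the cathepsin UMIs. B-like cells were lowest at 65.98 to 72.1 CPM. Cathepsin C, which activates granule serine proteases, was highest in alveolar macrophage-like cells (666 to 745 CPM), and lowest on average in neutrophil-like cells, at 22.4 to 41.8 CPM. Cathepsin A, a serine carboxypeptidase that also protects lysosomal glycosidases, had 617 to 681 CPM in alveolar macrophage-like and 527 to 609 CPM in classical monocyte-like cells.

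Cathepsins H, O and W had the patterns that divided lymphocytes. Cathepsin H, an aminopeptidase, was highest in interstitial macrophage-like cells (734, 618, 694 and 754 CPM) but also high in B-like cells (390, 313, 318 and 321 CPM). CD8 T-like cells had 3.12 to 5.79 CPM. Cathepsin O was highest in B-like cells, at 91.0, 72.3, 73.9 and 74.2 CPM, and the next class, ILC2-like cells, had 26.6 to 34.9 CPM. Cathepsin W, known as lymphopain from cytotoxic lymphocytes, was highest in NK-like cells at 770, 735, 568 and 620 CPM. CD8 T-like cells had 252, 207, 264 and 217 CPM and CD4 T-like cells 49.8, 36.1, 35.1 and 38.2 CPM. The 3 ranges did not overlap, and the NK-like mean was 2.87-fold the CD8 T-like one.

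**Figure D2:**
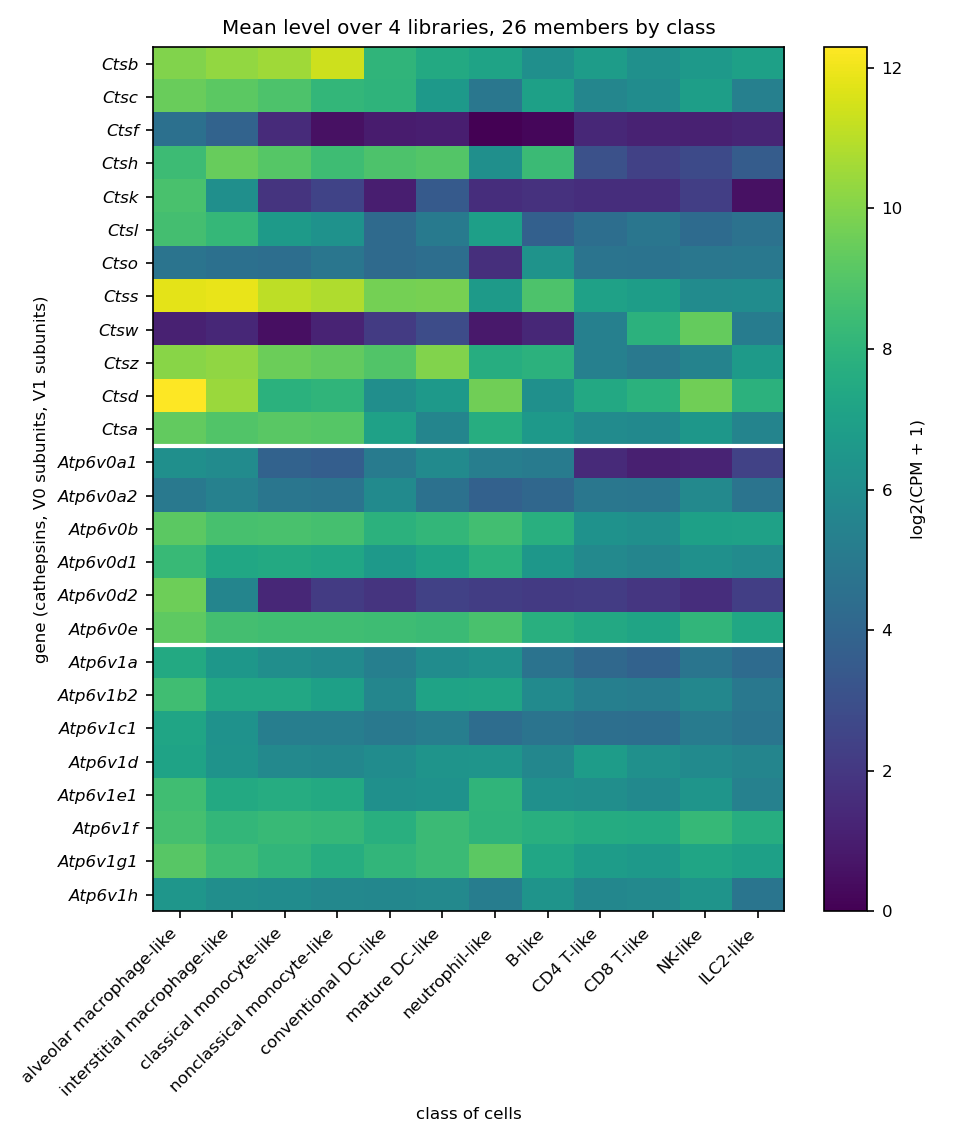
Mean CPM over the 4 libraries, as log2(CPM + 1), of the 26 members that reached 20 CPM (down the figure, with white lines between cathepsins, V0 and V1) in 12 cell classes (across). Most pump subunits are brightest in alveolar macrophage-like cells, Ctsk and Atp6v0d2 are far brighter there than elsewhere, and Ctsw is brightest in NK-like and then CD8 T-like cells.

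Of the V0 subunits, Atp6v0d2 differed most between classes. It encodes a form of the d subunit, which links the membrane ring to the central stalk, and is known from osteoclasts and macrophages. Alveolar macrophage-like cells had 765 [754, 776], 753 [742, 765], 791 [775, 806] and 796 [778, 815] CPM. Interstitial macrophage-like cells had 3.99, 83.5, 66.3 and 37.5 CPM, a mean of 47.8 CPM that was the next highest. Alveolar genes differed among the same interstitial libraries, Chil3 at 57.8, 918, 2264 and 352 CPM and Plet1 at 7.98, 68.0, 97.4 and 85.8 CPM, and their part in these Atp6v0d2 levels was not tested. The alveolar mean was 16.2-fold the interstitial one, and Atp6v0d2 gave 16.7% of the V-ATPase UMIs of alveolar macrophage-like cells. The other form, Atp6v0d1, ran from 298 to 329 CPM in alveolar macrophage-like cells to a mean of 47.1 CPM in CD8 T-like cells. The small membrane subunits Atp6v0b (579 to 595 CPM) and Atp6v0e (603 to 621 CPM) were highest in alveolar macrophage-like cells too, next to classical monocyte-like (397 to 473 CPM) and neutrophil-like cells (391 to 496 CPM) respectively.

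The V1 subunits had flatter patterns. Atp6v1a and Atp6v1b2, which form the catalytic hexamer, stood at 170, 176, 179 and 171 CPM and at 366, 369, 381 and 367 CPM in alveolar macrophage-like cells. Interstitial macrophage-like cells came second for both, with means of 89.9 and 165 CPM. The alveolar ranges lay above those of all other classes for these 2 and for Atp6v1c1, Atp6v1d, Atp6v1e1 and Atp6v1f, subunits of the stalks. Atp6v1g1, part of the peripheral stalks, was the exception, with 585, 501, 616 and 614 CPM in neutrophil-like and 571, 553, 535 and 509 CPM in alveolar macrophage-like cells, ranges that overlap. It gave 23.0% of the V-ATPase UMIs of neutrophil-like cells. Atp6v1h, the regulatory subunit, did not separate alveolar macrophage-like (80.6 to 89.2 CPM) from NK-like cells (66.9 to 98.2 CPM).

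The V-ATPase has alternative genes for some subunits, and the choice among them differed by class. For the d subunit, Atp6v0d2 gave 69.6% to 72.6% of UMIs in alveolar macrophage-like cells, 2.53% to 34.2% in interstitial ones and 1.56% to 6.21% in B-like cells. For the a subunit, which steers the pump to its membrane, Tcirg1 (the a3 form, not a member by its symbol) gave 61.1% to 65.9% in alveolar macrophage-like and 66.3% to 72.2% in classical monocyte-like cells. Atp6v0a2, the a2 form, known from Golgi and endosomes, gave 59.9% to 71.9% in CD4 T-like and 58.7% to 65.3% in CD8 T-like cells. Atp6v0a1 gave 43.1% to 51.3% in B-like cells but 1.38% to 6.94% in CD4 T-like cells. Macrophage- and monocyte-like cells, T-like cells and B-like cells thus each drew most on a different a subunit gene. In level, Atp6v0a1 was 63.4 to 74.2 CPM and Atp6v0a2 27.5 to 33.3 CPM in alveolar macrophage-like cells. For the B, C, E and e subunits nearly all UMIs came from 1 gene (Atp6v1b2, Atp6v1c1, Atp6v1e1 and Atp6v0e), and for the G subunit Atp6v1g2 gave 4 of 50, 1 of 31, 4 of 69 and 2 of 67 UMIs in ILC2-like cells, and Atp6v1g3 3 of 38 in the NK-like cells of Papain WT.

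**Figure D3:**
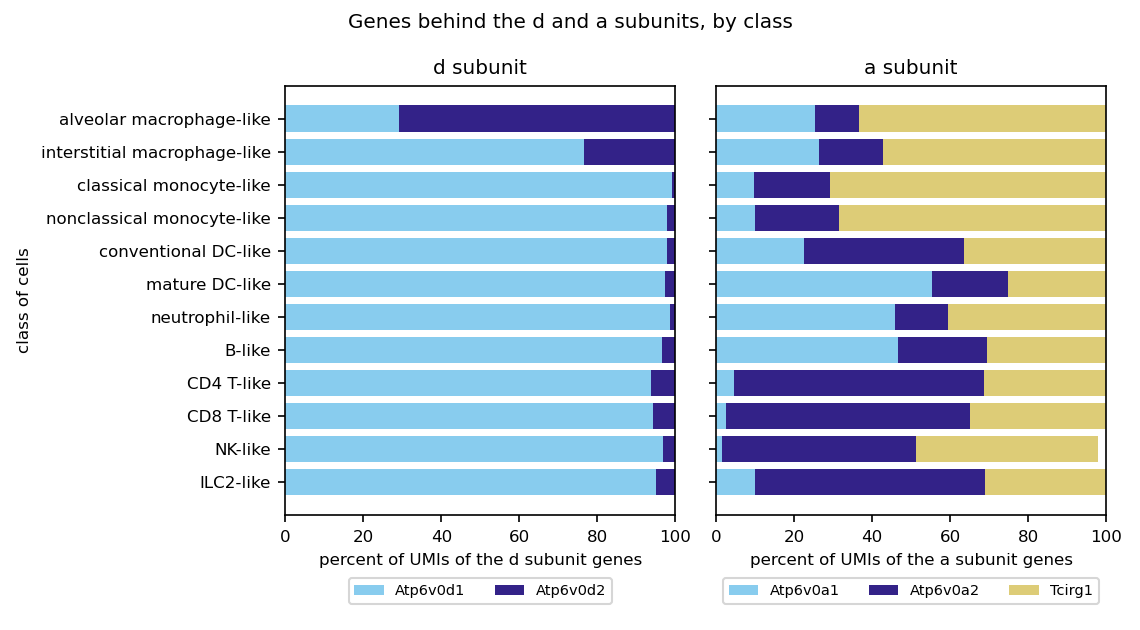
Stacked shares of the UMIs of the d subunit (Atp6v0d1, Atp6v0d2) and of the a subunit (Atp6v0a1, Atp6v0a2, Tcirg1) in each class, all 4 libraries pooled; Atp6v0a4, with 4 UMIs in all, is counted but not drawn. Atp6v0d2 leads in alveolar macrophage-like cells, Tcirg1 in macrophage- and monocyte-like cells, Atp6v0a2 in T-like cells and Atp6v0a1 in B-like cells.

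Counted against B-like cells, with a member called when it differed at least 2-fold the same way in all 4 libraries, 20 members were higher and 2 lower (Ctso, Ctse) of 29 measured in alveolar macrophage-like cells, where 25.1% of all genes were called higher and 14.6% lower. The median log2 ratio was 1.84 over members and 0.22 over all genes. Ctsd had a mean log2 ratio of 6.17 over the libraries. Those of Atp6v0d2 (8.08) and Ctsk (7.49) were larger, but they are set against B-like levels that did not clear the freed-RNA check described further on, and their size is not read. Classical monocyte-like cells had 11 higher and 2 lower of 28 (15.4% and 16% of all genes; medians 0.85 and −0.15), and nonclassical ones 8 higher and 1 lower of 28 (14.4% and 12.1%). In cDC-like cells only Ctsb and Atp6v0a2 were higher and Ctso lower of 27, against 12.9% and 10.4% of all genes.

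In neutrophil-like cells the families differed in their medians. The median log2 ratio to B-like cells was 0.06 over cathepsins, 0.81 over V-ATPase subunits and −0.38 over all genes. Against B-like cells 5 members were higher and 4 lower of 27, where 11.8% of all genes were higher and 36.4% lower. The higher ones were Ctsl, Ctsd, Atp6v1a, Atp6v1e1 and Atp6v1g1, and the lower ones Ctsc, Ctsh, Ctso and Ctss, all cysteine cathepsins. Against classical monocyte-like cells Ctsd and Atp6v0a1 were higher (8.7% of all genes) and 7 cathepsins lower (30.8%) of 24. Over members these shares, 8.33% and 29.2%, lay near those over all genes. By family, 7 of 10 cathepsins and 0 of 14 V-ATPase subunits were lower. The medians were −2.41 over cathepsins, −0.05 over V-ATPase subunits and −0.44 over all genes. NK-like cells had Ctsw, Ctsd and Atp6v0a2 higher and Ctsh, Ctso, Ctss, Ctsz and Atp6v0a1 lower than B-like cells of 27 (7.31% and 7.14% of all genes). Alveolar macrophage-like exceeded classical monocyte-like cells for 10 members and were lower for 1, Ctse, of 29 (18.8% and 8.12%). Between the 2 monocyte classes no member was called of 26, against 2.46% higher and 2.91% lower of all genes.

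RNA freed from macrophages can give UMIs in other cells. In each library 6 genes of alveolar macrophages (Chil3, Ear2, Marco, Lpl, Krt79 and Plet1) were taken as its measure. In B-like cells they stood at 0.18% to 0.89% of their alveolar macrophage-like CPM. Of the 26 expressed members, 23 exceeded all 6 genes in all 4 libraries in B-like cells, 24 in CD4 and in CD8 T-like cells, and 22 in neutrophil-like and in NK-like cells. Ctsk and Atp6v0d2 did not do so in any of these 5 classes. In B-like cells Ctsk stood at 0.40% to 0.94% of its alveolar level and above all 6 genes in 3 libraries, and Atp6v0d2 at 0.17% to 0.66% and above them in 1, so these low levels cannot be told apart from background in every library. ILC2-like cells had 20, with Ctsh, Ctss, Ctsf and Atp6v0a1 also not above. Nonclassical monocyte-like cells had 15, where Ctsf, Ctsl, Ctsd, Atp6v0a1, Atp6v1a, Atp6v1b2, Atp6v1c1, Atp6v1d and Atp6v1g1 were also not above. The gene that set this bar was Ear2, at 26.7% to 38.5%. Chil3 stood at 0.62% to 1.26% and Lpl at 0.69% to 1.31% there, and the median over the 6 genes was 0.93%. Ctsd stood at 5.05% to 5.61% and Ctsl at 14.5% to 22.7% in these cells. In cDC-like and classical monocyte-like cells 21 of 26 exceeded all 6 genes, and Ctsd was not among them: it stood at 1.21% to 1.58% of its alveolar level in cDC-like and 3.89% to 5.23% in classical monocyte-like cells, where the median over the 6 genes was 0.58% and 1.28% and the highest, in 1 library, 15.1% and 16.9%. Plet1 was the highest of the 6 in cDC-like cells, at 4.04% to 15.1%, while Chil3 stood at 0.20% to 0.44% there. Ear2 was the highest in classical monocyte-like cells, at 10.5% to 16.9%, while Plet1 stood at 0.18% to 0.38%. The 6 genes thus gave no common level of freed RNA in the monocyte-like and cDC-like cells. How much of the members' levels in these 4 classes is freed RNA was not tested.

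Shares of cells with a UMI were compared at equal depth. Thinned to 1000 UMIs per cell, Ctsw was seen in 56.1% [48.2, 63.6], 45.3%, 31.4% [20.3, 45.03] and 44.9% of NK-like cells and 20.5%, 18.8%, 20.8% and 17.0% of CD8 T-like cells (95.5% and 69.0% before thinning in DPBS WT, where the median cell held 4987 and 6663 UMIs). Among B-like cells, with 3884.5 UMIs in the median cell, 0.0896% [0.0246, 0.326] had a Ctsw UMI after thinning and 0.624% before. Atp6v0d2 was seen in 53.5%, 49.8%, 46.6% and 53.2% of thinned alveolar macrophage-like cells, and in 0.538%, 0.342%, 0.526% and 0.0574% of B-like cells.

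Members also varied within classes. Of the cDC-like clusters, the cDC2-like one (Cd209a, Mgl2) held 3047 to 3372 CPM of cathepsins and the cDC1-like one (Xcr1, Clec9a) 1559 to 1622 CPM. Ctss was 1138, 1125, 1141 and 1012 CPM in the first and 485, 420, 459 and 467 CPM in the second, and Ctsh 598 to 659 CPM and 213 to 295 CPM. None of these ranges overlap. Among T-like clusters, Ctsw was low in the CD4 T-like cluster Ts0, at 24.4 to 30.2 CPM, and stood at 199, 244, 143 and 240 CPM in cluster Ts4, led by Ifng and Cxcr3, at 275 to 397 CPM in the CD8 T-like cluster Ts6, led by Gzmm, and at 336 to 488 CPM in cluster Ts9, led by Klra7 and Xcl1. Ctsd was also higher in Ts4 (289 to 430 CPM) than in Ts0 (149 to 175 CPM). In B-like cells, Ctsb was 105 to 113 CPM in cluster B13 (Sox5, Fcrl5) and 52.9 to 62.4 CPM in the largest cluster, B0.

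Alveolar macrophage-like cells fell into 6 named clusters. Cluster Ms10, led by Inhba and Fstl1 and made of 83, 74, 102 and 28 cells, had the highest cathepsin sums of these: 16851, 17231, 24266 and 22087 CPM. Ctsd there was 7319, 7887, 9504 and 8684 CPM and Ctsk 712, 798, 822 and 959 CPM, and in the largest cluster, Ms0, they were 4164 to 5119 CPM and 290 to 448 CPM. Ms13 and Ms8 were the 2 clusters of dividing cells. Ms13 had 9055 to 9882 CPM of cathepsins, with Ctss at 1967 to 2237 CPM and Ctsd at 3056 to 3419 CPM. These lay below all other named clusters, Ms8 among them. The Ctsk of Ms13 (649 to 788 CPM) was nevertheless above that of Ms0.

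**Figure D4:**
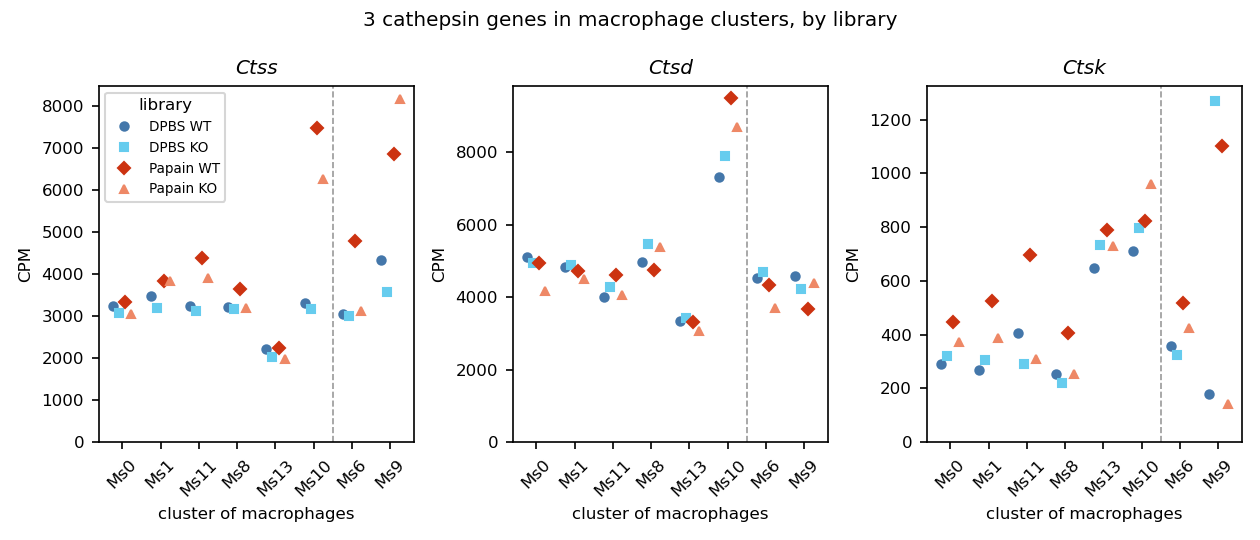
CPM of Ctss, Ctsd and Ctsk in the 6 named clusters of alveolar macrophage-like cells and, beyond the dashed line, in the unnamed macrophage clusters Ms6 and Ms9, with 1 marker for each library. Ctss is raised in Ms10 and Ms9 in the 2 papain libraries and level in Ms0, and Ctsk in Ms9 is high in DPBS KO and Papain WT only.

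Papain against DPBS was read within each genotype, and a member counted as past the limit when both pairs differed at least 1.5-fold the same way with 50 or more UMIs in each pair. In 10 classes with enough cells 196 member values were read, and 1 was past it. In alveolar macrophage-like cells the count was 0 of 27 members (1.03% of all genes), with medians over members of 0.06 in WT and −0.01 in KO and over all genes of −0.05 and −0.00. It was 0 of 22 in classical (0.433%) and 0 of 21 in nonclassical monocyte-like cells (0.439%), 0 of 20 in cDC-like (1.26%), 0 of 16 in neutrophil-like (1.58%), 0 of 23 in B-like (1.17%), 0 of 22 in CD8 T-like (1.17%), 0 of 15 in NK-like (1.56%) and 0 of 7 in ILC2-like cells (1.36%). Over the 10 classes, the medians over members lay between −0.13 and 0.15. Medians over members do not give the sums. In alveolar macrophage-like cells the cathepsin sum had a log2 papain ratio of 0.20 [0.19, 0.21] in WT and 0.01 [0.004, 0.024] in KO. The V-ATPase sum had −0.00 and −0.03. These ratios were small beside the differences between alveolar macrophage-like and B-like sums.

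The member past the limit was Ctsh in CD4 T-like cells, 1 of 23 (1.88% of all genes). It had 48, 24, 112 and 53 UMIs, or 5.85, 4.38, 11.1 and 7.77 CPM, so both papain values lay above both DPBS values. The log2 ratio was 0.92 [0.42, 1.44] in WT and 0.83 [0.11, 1.59] in KO. Cluster Ts12, led by Foxp3, Lrrc32 and Il2ra, genes of regulatory T cells, held 49, 24, 119 and 38 of these cells (3.83%, 2.75%, 8.38% and 4.03%), and 53 of the 112 Papain WT UMIs. Without it the ratios were 0.14 [−0.44, 0.73] in WT and 0.69 [−0.08, 1.502] in KO, so the WT pair no longer passed the limit. The call was also lost with doublets kept, as a mean over cells, with cells gated on markers, at 2-fold and at 200 UMIs.

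In alveolar macrophage-like cells the most abundant members moved by small amounts. Ctss was higher with papain by 0.37 [0.35, 0.39] in WT and by 0.24 [0.22, 0.25] in KO on the log2 scale, and Ctsd by 0.15 in WT and by −0.14 in KO. Ctsk was higher by 0.70 [0.66, 0.75] in WT and by 0.19 [0.13, 0.24] in KO, so Papain WT alone passed the 1.5-fold limit. Beside these values, Chil3 in cluster Ms0 was 11781, 11687, 25081 and 13920 CPM, while the markers Lpl (2713, 2467, 2443 and 2199 CPM) and Plet1 (1496, 1498, 1533 and 1451 CPM) did not show this gap. Whether the Ctsk level moves with that of Chil3 cell by cell was not tested. Atp6v0d2 stayed between 753 and 796 CPM.

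The Ctss difference was not even over the clusters. In Ms10 it was 3301, 3176, 7466 and 6254 CPM, both papain libraries above both DPBS ones, with log2 ratios of 1.18 [1.13, 1.22] in WT and 0.98 [0.92, 1.03] in KO. In the same cluster Inhba was 10.5, 78.2, 160 and 144 CPM, and its part in the Ctss level was not tested. Ctss was the 1 member past the limit of 25 there, where 4.59% of all genes were. In Ms0 Ctss was 3249, 3067, 3339 and 3041 CPM, and 0 of 26 members were past the limit (0.536%). Ms10 made up 6.86%, 6.99%, 14.6% and 6.31% of alveolar macrophage-like cells, and without it the Ctss ratios over the class were 0.12 in WT and 0.15 in KO. The unnamed cluster Ms9, led by Mmp12, Arg1 and Ccl24, also had more Ctss with papain (4328, 3562, 6850 and 8166 CPM), 1 of 21 members past the limit (5.79% of all genes). Its Ctsk, 177, 1269, 1100 and 141 CPM, was high in DPBS KO and Papain WT and low in the other 2 libraries, and the values rest on 28, 65, 179 and 21 cells. Chil3 in Ms9 was 7845, 64282, 69856 and 8223 CPM, and its part in the Ctsk level was not tested.

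Cathepsin L had a larger papain ratio in the WT than in the KO pair of some myeloid classes and not of others, and the difference was not tested. In classical monocyte-like cells it was 71.7, 100, 134 and 101 CPM, a ratio of 0.90 [0.70, 1.11] in WT and of 0.02 [−0.20, 0.24] in KO. In neutrophil-like cells it was 85.3, 116, 176 and 110 CPM, with ratios of 1.04 [0.52, 1.61] and −0.08 [−0.64, 0.49]. Papain WT was the highest library in classical monocyte-like, neutrophil-like and alveolar macrophage-like cells. Classical monocyte-like Ctsd was also highest in Papain WT, with 193, 230, 287 and 206 CPM. In nonclassical monocyte-like cells Ctsl was 77.1, 78.1, 68.1 and 77.8 CPM, lowest in Papain WT, with a papain ratio of −0.18 [−0.51, 0.16] in the WT pair. With 1 library per group, a response of WT mice and a property of the Papain WT library cannot be told apart.

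**Figure D5:**
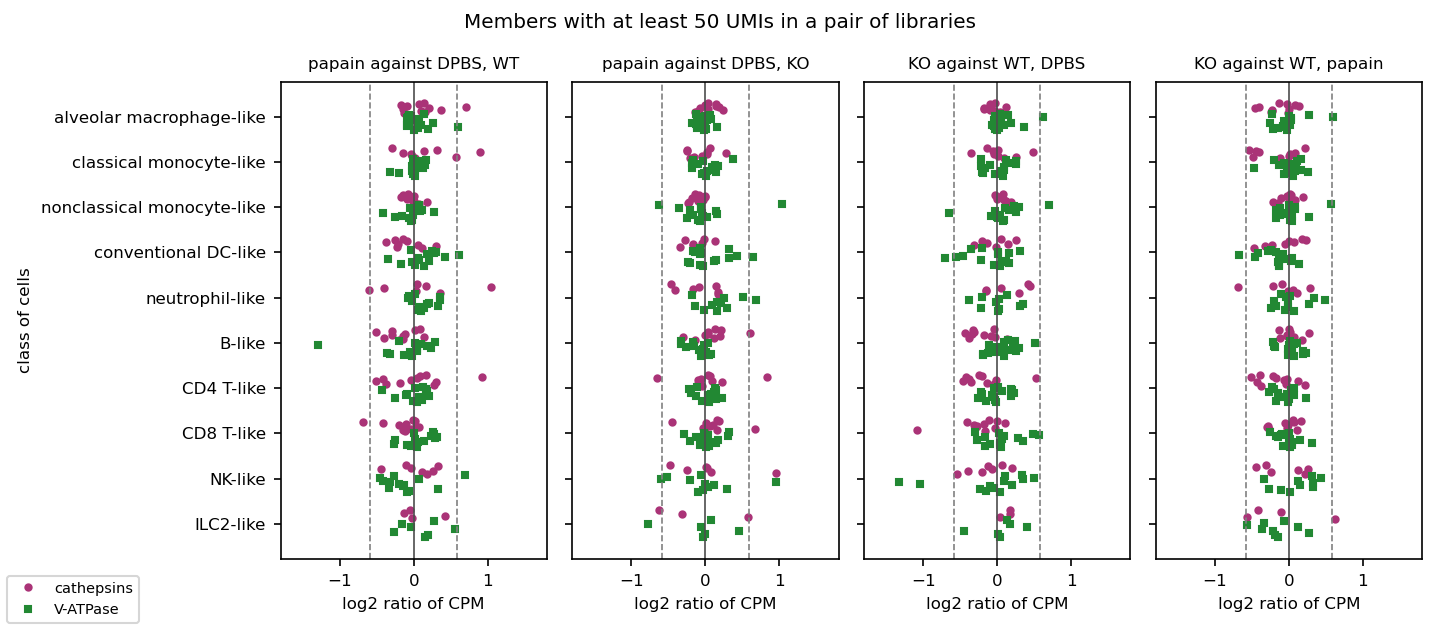
log2 ratios of each member with 50 or more UMIs in a pair, by class, for papain against DPBS in WT and KO and for KO against WT in DPBS and papain libraries, each point being 1 member, with dashed lines at 1.5-fold. Most points lie between the lines in all 4 pairs.

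KO against WT gave as few members past the limit: 1 of 193 values over the 10 classes, with medians over members between −0.21 and 0.17. In CD4 T-like cells 0 of 23 members were past it (1.64% of all genes), and in CD8 T-like cells 0 of 22 (0.565%). Ift20 was lowered in both classes. In CD8 T-like cells it was 52.8, 15.6, 52.6 and 17.3 CPM. The cathepsin sum in CD4 T-like cells was lower in the KO library of both pairs by more than counting error, the 1 error these intervals cover. It was 709, 642, 703 and 624 CPM, a KO ratio of −0.14 [−0.20, −0.08] in DPBS and −0.17 [−0.23, −0.12] in papain libraries. Over all genes the median KO ratio in CD4 T-like cells was −0.07 and −0.11 in the same pairs. The ratios of the sums use no TMM factors, which were 0.996, 0.947, 1.06 and 0.999 for these libraries. In each pair the KO factor was the lower, so applying the factors makes both KO ratios smaller in size. Ctsb (115, 96.8, 130 and 98.8 CPM) and Ctsz (41.4, 32.5, 50.9 and 37.8 CPM) were lower in the KO library of both pairs. Not all cathepsins were. Ctsl (18.8, 27.0, 19.4 and 17.1 CPM) was higher in KO in the DPBS pair, and Ctsw (49.8, 36.1, 35.1 and 38.2 CPM) in the papain pair. The V-ATPase sum differed by −0.02 in each pair. The count was 0 of 22 in classical (1.44%) and 0 of 21 in nonclassical monocyte-like cells (0.346%), 0 of 20 in cDC-like (1.02%), 0 of 14 in neutrophil-like (0.75%), 0 of 23 in B-like (0.562%), 0 of 14 in NK-like (1.54%) and 0 of 7 in ILC2-like cells (1.51%). The 1 of 27 in alveolar macrophage-like cells (0.35%) was Atp6v0c, the subunit whose counting is uncertain, and the call was lost in 9 alternative settings, among them doublets kept, TMM factors and gating. It had 82, 113, 41 and 45 UMIs, or 3.51, 5.41, 3.33 and 5.04 CPM, with ratios of 0.62 [0.20, 1.05] in DPBS and 0.60 [−0.04, 1.25] in papain libraries.

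Beside these counts stands a shift in which clusters made up a class. Cluster B1 held 61.2% of B-like cells in DPBS WT and 28.8% in DPBS KO, while B0 held 34.6% and 66.3%. B-like Ctsh was 0.32 lower on the log2 scale in DPBS KO than in DPBS WT [−0.39, −0.24] and level between the papain libraries. Within the clusters Ctsh was 430, 364, 390 and 384 CPM in B1 and 329, 284, 274 and 276 CPM in B0. It was higher in B1 in every library, and within each of B1 and B0 it was also lower in DPBS KO than in DPBS WT. The part of the shift in clusters in the class values was not tested.

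The wider lysosomal lists were read in the same way. Of 28 soluble hydrolases other than cathepsins, 22 were higher and 1 lower in alveolar macrophage-like than in B-like cells, as were 15 and 0 of 18 membrane proteins and cofactors, 7 and 1 of 13 accessory V-ATPase genes, 3 and 1 of 5 measured cathepsin inhibitors, 2 and 0 of 7 transcriptional regulators of the MiT/TFE family and partners, and 5 and 1 of 6 genes of sorting to the lysosome. Their medians were 2.32, 2.28, 1.26, 1.64, 0.57 and 2.01, beside 0.22 over all genes, of which 25.1% were higher and 14.6% lower. Cystatin C (Cst3), a secreted inhibitor of cysteine cathepsins, had 14901 to 19766 CPM in cDC-like and 5843 to 6643 CPM in nonclassical monocyte-like cells. Alveolar macrophage-like cells had 741 to 843 CPM, and B-like cells had 238 to 287 CPM. Cystatin F (Cst7), the inhibitor of cytotoxic granules, was highest in NK-like cells, at 191 to 262 CPM.

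With papain, 0 of 181 hydrolase values over the classes were past the limit, 3 of 133 of the membrane list, 0 of 73 of the accessory list, 3 of 41 of the inhibitors, 0 of 37 of the regulators and 0 of 36 of the sorting list, beside 0.433% to 1.88% of all genes by class. Cd63, a tetraspanin of late endosomes, was at 167, 142, 488 and 223 CPM in alveolar macrophage-like cells, a log2 ratio of 1.54 in WT and 0.65 in KO. The other membrane genes past it were Slc36a1 in classical monocyte-like and Clcn7 in CD4 T-like cells. Serpinb1a (4.99, 3.83, 22.6 and 11.3 CPM) and Cst7 (13.6, 8.75, 24.2 and 13.2 CPM) were higher in CD4 T-like cells, and BC100530 was lower in neutrophil-like cells. For KO, 1 of 180 hydrolase values was past the limit (Smpd1, lower in classical monocyte-like cells), 2 of 129 of the membrane list (Cd63 higher in classical monocyte-like, Grn lower in CD4 T-like cells), 2 of 40 of the inhibitors (Cst7 lower in CD4 T-like, Cstb lower in ILC2-like cells), and 0 of 69, 0 of 35 and 0 of 35 of the accessory, regulator and sorting lists, beside 0.346% to 1.64% of all genes by class.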

How the data were processed

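The 4 libraries (10x Genomics 3′ version 3 chemistry) were deposited as matrices of raw UMI counts per gene and barcode, which the authors made with Cell Ranger on mm10 per the submitters' processing notes and whose file headers name matrix writer version 3.1.0. The count table was read with Python 3.11.15, numpy 2.4.6, scipy 1.17.1 and pandas 2.3.3. The study's own thresholds for cells belong to another experiment of it. Barcodes with more than 200 genes and at most 15% mitochondrial UMIs were kept, and doublets were removed with Scrublet in scanpy 1.11.5 at 0.8% per 1000 barcodes, 275 to 585 per library. Cells were integrated by canonical correlation and clustered in Seurat 5.3.0 on R 4.3.3 (2000 variable genes, 30 dimensions, resolution 0.8) without the members and the other lysosomal lists, giving 46 clusters. Clusters were named by summed markers; the naming thresholds were set after the clusters were seen, and T-like clusters of mixed type were divided into CD4 and CD8 T-like cells cell by cell. UMIs were then summed per class and library and divided by the class total (CPM).

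Classes were compared within each library (2-fold the same way in all 4 with ranges apart, among genes with 50 or more UMIs over both classes). Papain and KO ratios were read in 2 pairs each (1.5-fold in both). With 1 library per group the planned ratios have no test; figures were drawn with matplotlib 3.10.9, and the scripts were tested on simulated data. Members named with values are those at 20 CPM in all 4 libraries of a class, each gene of a subunit that has several, and, for ratios, those past 1.5-fold and the most abundant; of the other lists counts and up to 3 genes are named. The members, lists and rules were chosen with earlier results of these data known. Protein sequences were not analysed here. Alternatives, among them TMM factors from edgeR 4.0.16, are given with their effect in the closing section.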

Additional observations from a re-analysis of the deposited data

How the results depend on the processing

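Levels over B-like cells kept their direction under every setting tried, except the neutrophil-like cathepsin sum. As log2 means over 4 libraries, the alveolar macrophage-like cathepsin sum was 3.13, and 2.84 with cells gated on markers instead of clustered and 2.51 without the top member. The classical monocyte-like value of 2.07 became 1.91 with gating and 1.99 without the top member, and the nonclassical one of 2.14 became 1.81 and 1.48. The neutrophil-like value of 0.16 became 0.54 with gating and −0.70 without its top member, Ctsd. The cDC-like value of 0.77 became 0.86 with doublets kept, 0.87 as a mean over cells and 0.66 with gating. For the V-ATPase, the alveolar value of 1.88 became 1.81 with gating and 1.62 without the top member, the classical one of 0.81 became 0.76 and the neutrophil-like one of 1.02 became 0.84 without it, and the nonclassical one of 0.65 became 0.57 over cells, 0.68 with gating, 0.63 over B-like cells without macrophage UMIs and 0.58 without the top member. The count of 1 for papain in CD4 T-like cells became 0 with doublets kept, over cells, with gating, at 2-fold, at 200 UMIs and without cluster Ts12. The count of 1 for KO in alveolar macrophage-like cells became 0 with doublets kept, over cells, without integration, with gating, with cluster Ms6 counted, with TMM factors, at 2-fold, at 200 UMIs and in the largest cluster alone. Counts of 0 became 2 for papain in cDC-like cells with gating (Ctsl, Atp6v1b2), for papain in B-like cells at 20 UMIs (Ctsw, Atp6v0d2) and for KO in B-like cells with gating (Ctsk, Atp6v0d2). They became 1 for papain in CD8 T-like cells at 20 UMIs (Atp6v0d2), papain in NK-like cells over cells (Atp6v1h), KO in cDC-like cells with gating (Ctsl), KO in NK-like cells over cells (Atp6v1e1) and at 20 UMIs (Atp6v1c1), and KO in ILC2-like cells at 20 UMIs (Ctsc). For the papain and KO ratios of the sums, 520 alternative values were read. Of these, 414 lay within the counting interval of the main value and 106 outside it, and 465 kept its sign. The settings with Ms6 counted and without Ts12 or Ms10 were chosen after seeing the data. The cause of these changes was not tested. No library could be left out, since each group has 1, and the small classes (mature dendritic, interstitial macrophage, NK and ILC2-like) were limited by depth. No paired analysis of papain or genotype was possible because each group has 1 library and all carry the same replicate number.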
